A study of Homo sapiens with 8 samples.

Results

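Mitochondrial ribosomal protein mRNAs were taken as the protein-coding genes of the deposited expression table whose symbol begins with MRPL or MRPS and a digit, which gave 76 of the 17788 genes listed. Of these, 47 carry an MRPL symbol and 29 an MRPS symbol. By their known place, 49 encode proteins of the large subunit, counting MRPS30 and MRPS18A, and 26 encode proteins of the small subunit. MRPS36 is counted with neither subunit, since its protein is now described as a part of the 2-oxoglutarate dehydrogenase complex. By the classes used here, 44 of the 76 have a counterpart in the bacterial ribosome and the other 32 have none. The 32 include MRPS36, and also MRPS18A and MRPS18B, which are related to MRPS18C of the 44.

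Mitochondria hold their own ribosome, which translates the few messages of the mitochondrial genome into core subunits of the respiratory chain. Its RNA is made in the mitochondrion, but all of its proteins are encoded in the nucleus, translated in the cytosol and imported. Staufen1, the product of STAU1, binds double-stranded stretches of RNA and is known for roles in mRNA localisation, translation and decay.

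The libraries were made from HCT116 cells, a line established from a human colorectal carcinoma, and fall into 4 groups of 2: spindle and input RNA of STAU1-KO cells, and spindle and input RNA of wild-type (WT) cells. STAU1-KO cells were derived by CRISPR. All STAU1-KO columns bear 1 clone code, so that genotype and clone cannot be told apart. Cells of every group had been held with RO-3306, an inhibitor of CDK1, for 16 h, released, exposed to taxol at 100 µM for 15 min and shaken off as mitotic cells. Input is RNA of whole mitotic cells, and spindle is RNA of a microtubule pellet spun through glycerol after lysis with Triton X-100, a detergent. The series calls the replicates biological and names no separate cultures, so that p-values measure the spread between these libraries, which may be technical. RNA was depleted of ribosomal RNA before strand-specific libraries were made, and values are FPKM, fragments per length of gene and size of library, as the authors scaled them.

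Each library had 5.21 M to 14.6 M reads on listed genes, and the members together took 7577 to 70092 of them. STAU1 had 9.83 and 9.83 FPKM in STAU1-KO spindles and 4.59 and 4.88 FPKM in STAU1-KO input, against 11.5 and 16.2 FPKM in WT spindles and 31.9 and 28.5 FPKM in WT input. Both STAU1-KO inputs lay below both WT inputs, with a difference of -2.44 on the log2(FPKM + 1) scale (SE 0.16, limma adjusted p = 0.00889). Between STAU1-KO and WT spindles STAU1 did not pass the test (-0.44, limma adjusted p = 0.113), and in STAU1-KO it was higher in spindle than in input (0.92, limma adjusted p = 0.00488). The WT spindle replicates stand apart from each other: 28S ribosomal RNA (RNA28S5) took 13.6% of reads in replicate 1 and 46.1% in replicate 2, against 11% and 10.8% in STAU1-KO spindles and 1.29% to 1.64% in the 4 input libraries. Of the colon epithelial markers, EPCAM, KRT8, KRT18 and CDH1 were listed and KRT20 and VIL1 were not. Their summed level was 395 and 393 FPKM in STAU1-KO spindles, 642 and 611 FPKM in STAU1-KO input, 186 and 634 FPKM in WT spindles and 876 and 944 FPKM in WT input. No blood or endothelial marker was listed, and of the fibroblast markers only COL1A1 was.

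The sequences below show base composition, which goes with the genotype difference in spindles described further on. They are coding bases 301 to 375 of the longest coding sequence in GENCODE 29 (GRCh38), read 5′ to 3′ on the coding strand, with G and C in capitals. The first 4 belong to the members with the largest STAU1-KO over WT spindle difference and the last 4 to those with the lowest, among members with a coding sequence this long.
MRPL47: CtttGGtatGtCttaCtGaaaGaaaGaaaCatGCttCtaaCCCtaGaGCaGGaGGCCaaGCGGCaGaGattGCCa
MRPL1: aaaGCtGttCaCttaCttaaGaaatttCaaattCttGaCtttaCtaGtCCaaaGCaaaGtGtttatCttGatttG
MRPS23: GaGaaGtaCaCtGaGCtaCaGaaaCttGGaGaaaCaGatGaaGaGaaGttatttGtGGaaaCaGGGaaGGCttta
MRPL51: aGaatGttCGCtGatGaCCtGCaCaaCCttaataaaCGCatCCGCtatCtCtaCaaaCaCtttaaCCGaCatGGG
MRPL23: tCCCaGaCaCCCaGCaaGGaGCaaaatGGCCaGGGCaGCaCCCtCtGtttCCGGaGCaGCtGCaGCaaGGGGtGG
MRPS26: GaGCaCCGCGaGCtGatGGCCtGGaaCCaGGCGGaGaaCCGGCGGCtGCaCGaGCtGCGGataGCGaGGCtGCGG
MRPL4: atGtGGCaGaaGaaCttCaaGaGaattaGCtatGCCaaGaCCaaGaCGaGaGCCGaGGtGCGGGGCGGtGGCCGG
MRPS25: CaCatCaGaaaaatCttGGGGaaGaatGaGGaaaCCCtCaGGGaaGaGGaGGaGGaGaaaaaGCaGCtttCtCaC
In these 75 bases, G or C stood at 35 places in MRPL47, 22 in MRPL1, 30 in MRPS23 and 33 in MRPL51, against 47 in MRPL23, 53 in MRPS26, 43 in MRPL4 and 35 in MRPS25.

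Every member was detected in every library, but levels spread widely. The highest were MRPS34, MRPS23, MRPL51, MRPL18 and MRPL3, and the lowest MRPS24, MRPL53 and MRPL46. MRPS34, a small-subunit protein found only in mitochondria, had 28.4 and 31.3 FPKM in STAU1-KO spindles and 88.4 and 82.6 FPKM in STAU1-KO input, against 24.1 and 48.7 FPKM in WT spindles and 113 and 97.3 FPKM in WT input. MRPL51, of the large subunit, had 26.5 and 27.4 FPKM in STAU1-KO spindles and 84.6 and 83.2 FPKM in STAU1-KO input, against 7.43 and 17.7 FPKM in WT spindles and 95.4 and 83.6 FPKM in WT input. Spindle values were the lower ones for both. MRPL46, a low member, had 1.57 and 1.32 FPKM in STAU1-KO spindles and 2.38 and 2.39 FPKM in STAU1-KO input, against 1.35 and 1.22 FPKM in WT spindles and 2.30 and 2.75 FPKM in WT input. MRPS24, whose bacterial counterpart lies at the entry of the mRNA channel, had 0.271 and 0.287 FPKM in STAU1-KO spindles and 0.642 and 0.993 FPKM in STAU1-KO input, against 0.272 and 0.443 FPKM in WT spindles and 1.24 and 0.85 FPKM in WT input. It was the only member to fail the filter for testing, an FPKM of at least 1 in at least 2 libraries. Its locus lies within the readthrough gene URGCP-MRPS24 on the same strand, and how the authors counted reads shared by overlapping genes is not given in the sources used here. The remaining 75 members were tested. Their input levels kept nearly the same order in both genotypes, with Pearson's r = 0.995 between STAU1-KO and WT input means across members (n = 75, log2 scale, genes not being independent replicates).

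**Figure D1:**
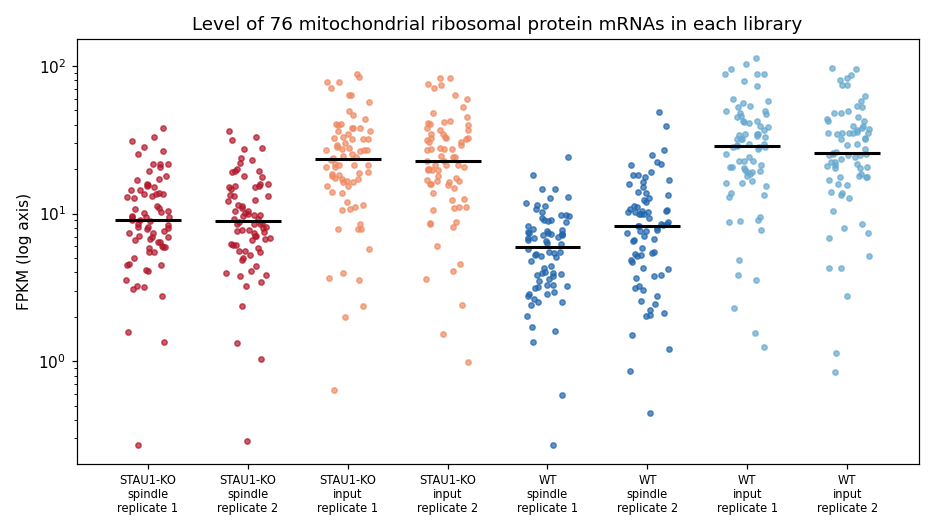
FPKM of each of the 76 members in each of the 8 libraries (log axis); points are members and horizontal lines are medians. The medians lie at 9.04 and 8.97 FPKM in STAU1-KO spindles and 23.4 and 22.7 FPKM in STAU1-KO input, against 5.95 and 8.31 FPKM in WT spindles and 28.9 and 25.6 FPKM in WT input.

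Mitochondrial ribosomal protein mRNAs were lower in spindle preparations than in input in both genotypes. Their summed level was 851 and 852 FPKM in STAU1-KO spindles against 2090 and 2070 FPKM in STAU1-KO input, and 496 and 763 FPKM in WT spindles against 2590 and 2410 FPKM in WT input. As a share of all reads they took 0.232% and 0.232% in STAU1-KO spindles against 0.477% and 0.481% in STAU1-KO input, and 0.167% and 0.115% in WT spindles against 0.549% and 0.529% in WT input. Both spindle libraries lay below both inputs in each genotype on both measures. Ribosomal RNA does not enter a share of coding reads, which was 0.290% and 0.290% in STAU1-KO spindles against 0.534% and 0.535% in STAU1-KO input, and 0.229% and 0.244% in WT spindles against 0.624% and 0.604% in WT input. FPKM and shares are relative to the rest of a library and give no amount per cell or spindle. Less RNA of the members and more of other RNA in the spindle preparation cannot be told apart.

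In STAU1-KO cells, 64 of 75 members fell in spindles relative to input and 1, MRPL53, rose (limma adjusted p under 0.05), where 27.1% of all genes tested were called lower and 22.1% higher. Their median change was -1.16 on the log2(FPKM + 1) scale, with a range from -2.60 to 0.62, and that of all genes was -0.02. In WT cells, 70 of 75 members fell and MRPL53 rose, where 32.7% of all genes were called lower and 27.6% higher. The members' median change was -1.88, with a range from -3.27 to 0.84, and that of all genes was 0. Both spindle libraries lay below both inputs for 73 members in STAU1-KO cells, where 44.0% of all genes did so, and for 72 members in WT cells, where 40.0% did so. When each library was scaled to the same coding sum, the median of all genes moved to 0.49 in STAU1-KO and 0.73 in WT, and the members lay 0.97 below it in STAU1-KO and 1.69 below it in WT.

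The median spindle level was 42.5% and 43.0% of the mean input level in the STAU1-KO spindle libraries, and 21.9% and 27.9% in the WT spindle libraries. Members under 50% of input numbered 48 and 51 of 76 in the STAU1-KO libraries, and 69 and 64 in the WT libraries. Of the tested members, 64 were called lower in both genotypes and none in STAU1-KO alone. MRPL1, MRPL2, MRPL44, MRPL55, MRPS31 and MRPS5 were called lower in WT alone. In STAU1-KO, MRPL1 (-0.44), MRPL2 (-0.41), MRPL44 (-0.78), MRPL55 (-0.56) and MRPS5 (-0.14) also lay below 0, and MRPS31 (0.12) above. Since no member passed the test of the difference of changes, these calls do not show that the genotypes differ. Since nearly all members fell in each genotype, a large overlap follows from the counts alone. Shares of all genes under 50% of input or lower in both genotypes are not given here. The 5 not called lower in either genotype were MRPL38, MRPL53, MRPS15, MRPS25 and MRPS6. For MRPS15 and MRPS6 every spindle value nevertheless lay below every input value of the same genotype. MRPS15 stood at -0.81 in STAU1-KO and -1.17 in WT (SE 0.51 each), and MRPS6 at -0.5 and -0.72 (SE 0.26 each). Across members, the STAU1-KO and WT changes, computed from separate libraries, were related with Pearson's r = 0.77 and Spearman's rho = 0.72 (n = 75).

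**Figure D2:**
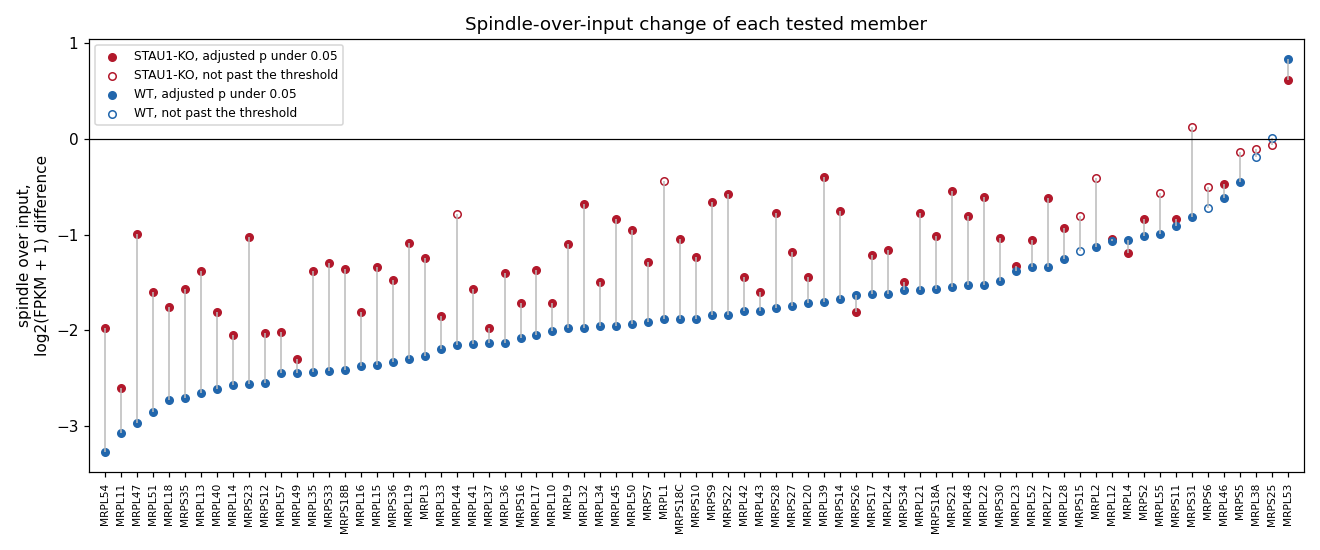
Spindle-over-input difference on the log2(FPKM + 1) scale for each of the 75 tested members, ordered by the WT value; red is STAU1-KO, blue is WT, filled points passed the threshold (limma adjusted p under 0.05) and open points did not. Most points lie below 0 in both genotypes, and the STAU1-KO point lies above the WT point for 71 of 75 members.

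Members of both subunits fell. Of the 49 large-subunit members, 43 fell in STAU1-KO spindles (median -1.19) and 47 in WT spindles (median -1.95). Of the 25 small-subunit members tested, 20 fell in STAU1-KO spindles (median -1.02) and 22 in WT spindles (median -1.75). Members with a bacterial counterpart fell in 38 of 43 cases in STAU1-KO and 41 of 43 in WT, and those without in 26 of 32 and 29 of 32. No test was made between these classes.

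The 4 deepest falls in WT and the 3 deepest in STAU1-KO were of large-subunit members, which make up 49 of the 75 tested. In STAU1-KO the small-subunit member MRPS12 (-2.03) came close behind MRPL14 (-2.05). MRPL54 (ENSG00000183617, chromosome 19), a protein particular to the mitochondrial large subunit, had 5.92 and 6.60 FPKM in STAU1-KO spindles against 27.2 and 28 FPKM in STAU1-KO input, and 3.12 and 3.23 FPKM in WT spindles against 41.9 and 36.7 FPKM in WT input. Its spindle values lay far below every input value, and it fell by 1.98 in STAU1-KO (SE 0.11, limma adjusted p = 0.000235) and fell by 3.27 in WT (SE 0.11, limma adjusted p = 5.88e-05). MRPL11 (ENSG00000174547, chromosome 11), the counterpart of the bacterial protein at the base of the stalk to which translation factors bind, had 6.07 and 5.51 FPKM in STAU1-KO spindles against 40.6 and 39.6 FPKM in STAU1-KO input, and 3.97 and 5.83 FPKM in WT spindles against 52.7 and 43.9 FPKM in WT input. It fell by 2.60 in STAU1-KO (SE 0.17, limma adjusted p = 0.000271), the deepest among members there, and fell by 3.07 in WT (SE 0.17, limma adjusted p = 8.73e-05).

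MRPL14, whose bacterial counterpart lies at the face between the subunits, had 12.9 and 12.2 FPKM in STAU1-KO spindles against 56.8 and 53.0 FPKM in STAU1-KO input, and 10.7 FPKM in both WT spindle libraries against 73.6 and 63.1 FPKM in WT input. MRPL49, a protein of the large subunit with no bacterial counterpart, had 7.45 and 6.25 FPKM in STAU1-KO spindles against 38.3 and 36.8 FPKM in STAU1-KO input, and 5.31 and 10.2 FPKM in WT spindles against 47.4 and 42.4 FPKM in WT input. Both fell in both genotypes, MRPL14 at -2.05 in STAU1-KO and -2.57 in WT, and MRPL49 at -2.30 in STAU1-KO and -2.45 in WT. MRPL12, which forms the stalk itself, fell too, at -1.05 in STAU1-KO and -1.07 in WT. MRPS12, of the decoding centre, fell, at -2.03 in STAU1-KO and -2.55 in WT.

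The 3 MRPS18 paralogs, related proteins that occupy different places in the ribosome, fell in both genotypes. The change in STAU1-KO and WT was -1.01 and -1.57 for MRPS18A, -1.36 and -2.41 for MRPS18B, and -1.04 and -1.88 for MRPS18C. MRPS30, a large-subunit protein despite its symbol, fell, at -1.03 in STAU1-KO and -1.48 in WT, and MRPS36 likewise, at -1.47 and -2.33.

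A few members did not pass the test for a fall in one or both genotypes. MRPS25 (ENSG00000131368, chromosome 3), a small-subunit protein with no bacterial counterpart, had 10.7 and 10.4 FPKM in STAU1-KO spindles against 11.1 and 11 FPKM in STAU1-KO input, and 14.8 and 12.4 FPKM in WT spindles against 13.7 and 13.3 FPKM in WT input. It passed the test in neither genotype (-0.06 in STAU1-KO, limma adjusted p = 0.678, and 0.01 in WT, limma adjusted p = 0.971). Its gene overlaps NR2C2 on the other strand. MRPS31, a small-subunit protein, had 15.8 FPKM in both STAU1-KO spindle libraries against 15.3 and 13.7 FPKM in STAU1-KO input (0.12, limma adjusted p = 0.376), and 9.05 and 10.4 FPKM in WT spindles against 18.1 and 17.6 FPKM in WT input (-0.82, limma adjusted p = 0.00105), so that it fell in WT alone. MRPL38, a large-subunit protein, had 3.08 and 3.44 FPKM in STAU1-KO spindles against 3.56 and 3.60 FPKM in STAU1-KO input, and 3.88 and 3.05 FPKM in WT spindles against 3.82 and 4.30 FPKM in WT input. These values depended on the scaling of the libraries. With equal coding sums MRPS25 was called higher in WT (0.94, limma adjusted p = 0.00854) and MRPS31 higher in STAU1-KO (0.78, limma adjusted p = 0.00298), as they were with equal upper quartiles (0.40, limma adjusted p = 0.0324, and 0.39, limma adjusted p = 0.0136). With equal coding sums MRPS25 in STAU1-KO (0.59) and MRPL38 in WT (0.61) stood above 0 without passing.

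MRPL53 (ENSG00000204822, chromosome 2), a protein of the base of the stalk, went the other way. It had 3.23 and 3.25 FPKM in STAU1-KO spindles against 1.99 and 1.53 FPKM in STAU1-KO input, and 3.59 and 2.75 FPKM in WT spindles against 1.55 and 1.13 FPKM in WT input, and so rose by 0.62 in STAU1-KO (SE 0.16, limma adjusted p = 0.0189) and by 0.84 in WT (SE 0.16, limma adjusted p = 0.00488). These values rest on 49 and 35 reads in STAU1-KO spindles, 35 and 31 in STAU1-KO input, 34 and 16 in WT spindles, and 18 and 15 in WT input. Its gene overlaps CCDC142 on the same strand, which rose as well, by 0.80 in STAU1-KO (limma adjusted p = 0.0054) and 0.92 in WT (limma adjusted p = 0.00221), and the part of shared reads in the rise of MRPL53 was not tested. With library weights the WT call of MRPL53 was lost (0.84, limma adjusted p = 0.0583). Without STAU1-KO input replicate 2 its STAU1-KO value was 0.51 (limma adjusted p = 0.114), and without either STAU1-KO spindle library its call was lost as well (limma adjusted p = 0.0821 and 0.0871).

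Of the 5 members not called lower in either genotype, MRPL38, MRPL53 and MRPS6 overlap another gene on the same strand in GENCODE 29. MRPS15 and MRPS25 do not. Leaving small RNA genes aside, 15 of the 73 tested members found in GENCODE 29 have such an overlap, and 11 of them fell in STAU1-KO (median -0.93) and 12 in WT (median -1.62). Of the 58 without one, 51 fell in STAU1-KO (median -1.27) and 56 in WT (median -1.92).

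Members are short messages. The longest listed transcript had a median of 1700 nt over the 75 tested members and 3460 nt over all coding genes tested, and the longest coding sequence a median of 606 nt against 1400 nt. Of the 75, 56 were among the coding genes with a longest transcript of up to 2246 nt. The 2917 coding genes in that range had a median change of -0.66 in STAU1-KO and -0.91 in WT, with 1554 lower in STAU1-KO and 1837 in WT. Across members, the change was lower where the level in input was higher: Spearman's rho was -0.56 in STAU1-KO and -0.58 in WT (n = 75), against -0.54 and -0.64 over 11671 coding genes. The input level enters both measures, so that this relation is a description. With coding length, rho was 0.29 in STAU1-KO and 0.20 in WT across members, and 0.53 and 0.50 over coding genes.

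In the authors' deposited table, genes marked changed had a log2 fold of about 1 or more in size. Size alone did not set the mark, since MRPS24 was marked unchanged at -1.56 in STAU1-KO and -1.59 in WT. In STAU1-KO spindles 49 of the 76 members were marked lower, none higher and 27 unchanged, where 15.3% of all genes were marked lower and 11.7% higher. The same authors' deposited table marked 67 lower, 1 higher and 8 unchanged in WT spindles, where 20.5% of all genes were marked lower and 15.7% higher. The median log2 fold change there was -1.25 in STAU1-KO and -2.07 in WT. Members marked unchanged could still be lower: at the authors' adjusted p under 0.05 alone, 65 members were lower in STAU1-KO and 71 in WT. Of the 17788 genes listed, 4562 and 5153 were.

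In whole cells, no member passed the test between STAU1-KO and WT input (limma adjusted p under 0.05), where 0.192% of all genes were called in either direction. An unadjusted limma p under 0.05 was reached by 9 of 75 members and by 1522 of the 17217 genes tested. With limma-voom on recovered reads 0 members were called as well. Most differences were nevertheless of one sign. The members' median was -0.25, their range -0.54 to 0.24, and 71 of 75 were below 0. Cytosolic ribosomal protein mRNAs were below 0 in 80 of 80 cases (median -0.26) and nuclear complex I (NDUF) mRNAs in 31 of 37 (median -0.11). Of the 13 messages the mitochondrial genome encodes, 2 were below 0 (median 0.19). For 64 members both STAU1-KO inputs lay below both WT inputs, as they did for 27.8% of all genes. MRPL23, which lines the exit of the tunnel for the new protein, had the largest difference, with 18.9 and 19.8 FPKM in STAU1-KO input against 29.7 and 27.4 FPKM in WT input (-0.54, SE 0.12, limma adjusted p = 0.237). MRPL54 was next at -0.49 (limma adjusted p = 0.237) and MRPL36 at -0.40 (limma adjusted p = 0.751). At the other end stood MRPL53 (0.24), MRPL33 (0.05) and MRPS30 (0.04). Without WT spindle replicate 1 or replicate 2, 4 members were called lower each time, where 1.32% and 1.26% of all genes were called lower.

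In spindles, many members were higher in STAU1-KO than in WT. Of 75 members, 23 rose and 1 fell (limma adjusted p under 0.05), where 10.6% of all genes were called higher and 5.52% lower. Their median difference was 0.39, with a range from -0.48 to 1.64, and 65 of 75 lay above 0; the median of all genes was 0.04. Both STAU1-KO spindles lay above both WT spindles for 43 members, as they did for 31.8% of all genes. The 23 comprise 13 members of the large subunit, 9 of the small subunit and MRPS36. Of the 23, 21 were also called lower in spindle than in input in both genotypes, as were 64 of all 75 tested members. The fit pools the spread of all 4 groups, whereas the WT spindle replicates differed most (SD of the log2 replicate difference 0.695, against 0.304 to 0.381). The pooled spread is therefore too small for WT spindles, and p-values and SEs of every comparison with them are too small on average.

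The rise was strongest in MRPL47 (ENSG00000136522, chromosome 3), a protein near the exit of the tunnel. It had 19.6 and 19.3 FPKM in STAU1-KO spindles against 3.94 and 7.77 FPKM in WT spindles, while its inputs had 38.3 and 40.9 FPKM in STAU1-KO and 53.2 and 48.1 FPKM in WT. Both STAU1-KO spindles lay above both WT spindles although both STAU1-KO inputs lay below both WT inputs, and the spindle difference was 1.64 (SE 0.25, limma adjusted p = 0.0138). MRPL1 (ENSG00000169288, chromosome 4), the counterpart of the bacterial protein of the mobile L1 stalk, had 15.6 and 12.4 FPKM in STAU1-KO spindles against 4.31 and 5.24 FPKM in WT spindles, and 18.4 and 20.0 FPKM in STAU1-KO input against 18.5 and 21.8 FPKM in WT input. It rose by 1.37 in spindles (SE 0.15, limma adjusted p = 0.00742).

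MRPS22 (ENSG00000175110, chromosome 3), a small-subunit protein found only in mitochondria, had 11.2 and 10.4 FPKM in STAU1-KO spindles against 4.01 and 4.86 FPKM in WT spindles (1.13, SE 0.11, limma adjusted p = 0.00581). MRPL39 (ENSG00000154719, chromosome 21), of the large subunit, had 21.6 and 23.7 FPKM in STAU1-KO spindles against 11.5 and 10.0 FPKM in WT spindles (1.01, SE 0.12, limma adjusted p = 0.00792). The inputs of MRPS22 had 16.4 and 17 FPKM in STAU1-KO against 19.1 and 17.8 FPKM in WT, and those of MRPL39 had 30.0 and 30.5 FPKM in STAU1-KO against 39.4 and 35.2 FPKM in WT. For both genes the STAU1-KO inputs were the lower ones, without passing the test, and the STAU1-KO spindles the higher ones.

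MRPL13, counterpart of a large-subunit protein of bacteria, rose by 1.12 (limma adjusted p = 0.00567), MRPL32, which is matured by an inner-membrane protease, by 1.01 (limma adjusted p = 0.00815), and MRPS14, of the small-subunit head, by 0.81 (limma adjusted p = 0.00724). MRPS28 rose by 0.83, MRPS36 by 0.69, MRPS18C by 0.69 and MRPS30 by 0.49, whereas MRPS18A (0.32), MRPS18B (0.70), MRPS12 (0.21), MRPL12 (-0.28) and MRPS6 (0.08) did not pass. MRPS23, a protein found only in mitochondria, had 38.2 and 36.3 FPKM in STAU1-KO spindles against 11.3 and 22.5 FPKM in WT spindles and rose by 1.17 (limma adjusted p = 0.0415), and MRPL51 did not pass at a similar size (1.15, SE 0.34, limma adjusted p = 0.0677), its WT spindle replicates being at 7.43 and 17.7 FPKM. MRPL23 fell by 0.48 (limma adjusted p = 0.0395), with 6.64 and 7.60 FPKM in STAU1-KO spindles against 9.60 and 11.1 FPKM in WT spindles. MRPS26 (-0.48) and MRPL4 (-0.42) were as far below 0 without passing, and without WT spindle replicate 2 they stood at 0.20 and 0.05. Without WT spindle replicate 1 both were called lower, MRPS26 at -1.16 (limma adjusted p = 0.00394) and MRPL4 at -0.89 (limma adjusted p = 0.00149).

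**Figure D3:**
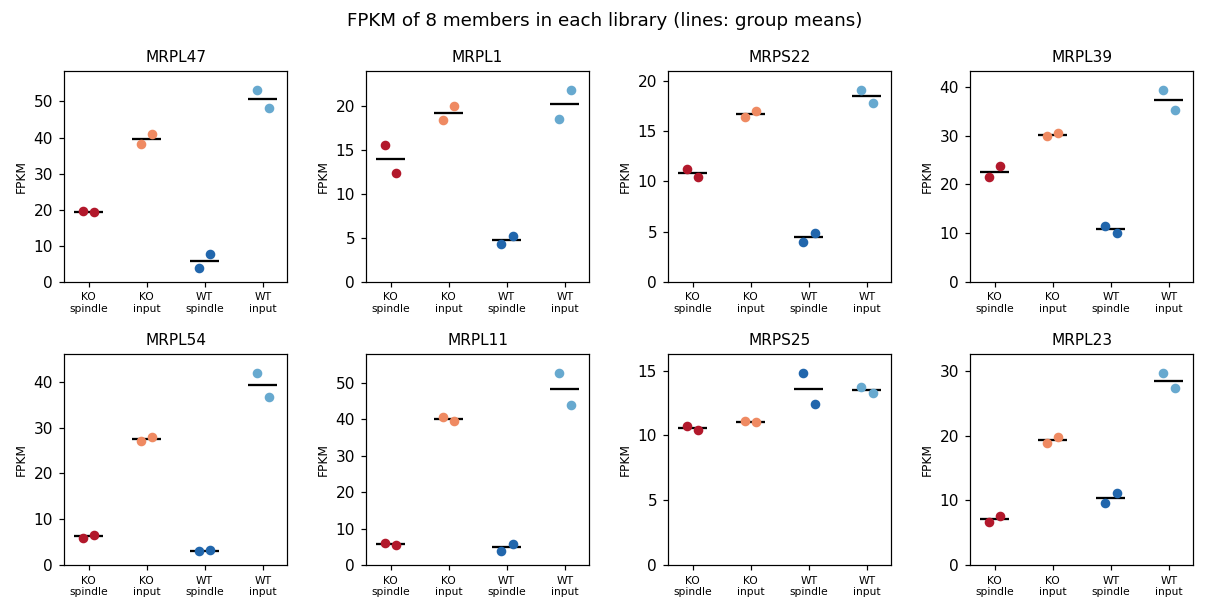
FPKM of 8 members in each of the 8 libraries (linear axes from 0); points are libraries and lines are group means, with KO for STAU1-KO. MRPL47, MRPL1, MRPS22 and MRPL39 have STAU1-KO spindle values well above WT spindle values, MRPL54 and MRPL11 are low in all 4 spindle libraries, MRPS25 is near its input level, and MRPL23 is lower in STAU1-KO spindles than in WT spindles.

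The WT spindle replicates differ from each other in the members too. In FPKM, 64 of 76 members were higher in replicate 2 than in replicate 1 of the WT spindles. The median ratio was 1.45, against a median ratio of 1.00 in STAU1-KO spindles. This depends on the measure. In WT spindle replicates 1 and 2 the members took 0.229% and 0.244% of coding reads, and 0.167% and 0.115% of all reads. The median difference between STAU1-KO and WT spindles was 0.70 against WT replicate 1 alone and 0.24 against WT replicate 2 alone. Against WT replicate 1 alone, 50 members were called higher and 2 lower, where 22.8% of all genes were called higher and 10.9% lower. Against WT replicate 2 alone, 33 were called higher and 12 lower, where 21.4% of all genes were called higher and 16.9% lower. In both fits the single WT spindle library is assumed to vary like the libraries of the other groups. For the fits named next that called no member, the share of all genes called is not given here, so the loss cannot be read as particular to the members. The same comparison called no member when the 4 spindle libraries were fitted alone and none without either STAU1-KO spindle library. It called 13 without either STAU1-KO input library (4.46% and 4.45% of all genes) and 6 with library weights (1.59% of all genes), in each case higher.

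Most members that rose in STAU1-KO spindles were among those with less G and C. Across the 73 tested members with a coding sequence in GENCODE 29, the STAU1-KO over WT spindle difference fell with the G and C share of the coding sequence (Spearman's rho = -0.69, Pearson's r = -0.69). Over 11342 coding genes rho was -0.65 and r was -0.60, so that coding genes as a whole showed the relation too. Of the 36 members with the lower share (38.4% to 51.7%), 20 rose in STAU1-KO spindles and none fell, with a median of 0.72. Of the 36 with the higher share (53.0% to 68.1%), MRPL54 rose and MRPL23 fell, with a median of 0.10. Among coding genes in the same 2 ranges, 27% rose (1454 of 5376, median 0.33) in the lower range and 2.94% (161 of 5469, median -0.18) in the higher.

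The relation was present against each WT spindle library, with rho = -0.77 across members when replicate 1 of the WT spindles was left out and -0.47 when replicate 2 was. G and C share also went with differences inside groups: across members, rho was 0.33 for replicate 2 minus replicate 1 of the WT spindles, 0.24 for the STAU1-KO spindles, -0.46 for the STAU1-KO inputs and -0.34 for the WT inputs. The part of library preparation in the genotype difference was not tested. The GC content of the whole gene, as the authors' table gives it, showed the same (rho = -0.67 over 75 members). For the spindle-over-input change itself, rho with coding G and C was -0.22 in STAU1-KO and 0.23 in WT, and the 36 members of lower share had a median of -1.02 in STAU1-KO and -1.88 in WT, against -1.34 and -1.71 for the 36 of higher share.

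**Figure D4:**
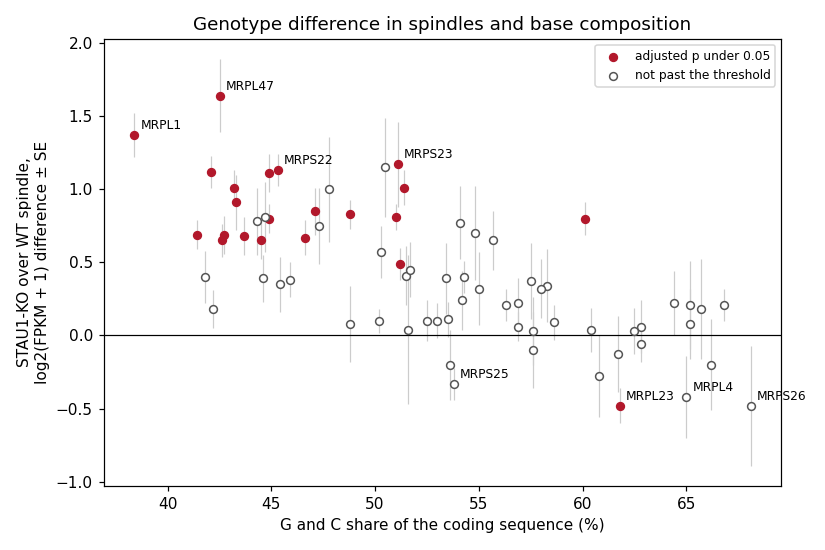
STAU1-KO over WT spindle difference (log2(FPKM + 1) scale, bars are ± SE of the fit) against the G and C share of the coding sequence in percent, for 73 tested members; red points passed the threshold (limma adjusted p under 0.05) and open points did not. Values fall from left to right, with 20 of the 21 called risers shown at or below 51.7% and MRPL54 the other.

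Whether the relative loss from spindles differs between genotypes was tested as the difference of the spindle-over-input changes. It was above 0, a smaller relative loss in STAU1-KO, for 71 of 75 members, with a median of 0.61 against 0.02 for all genes and a range from -0.21 to 1.98. The shift was not particular to the members. Cytosolic ribosomal protein mRNAs lay above 0 in 80 of 80 cases (median 0.75) and nuclear complex I (NDUF) mRNAs in 33 of 37 (median 0.76). Of the 13 messages the mitochondrial genome encodes, 1 lay above 0 (median -0.92). No member passed (limma adjusted p under 0.05), where 0.0929% of all genes did in either direction. An unadjusted limma p under 0.05 was reached by 38 of 75 members and by 3485 of the 17217 genes tested. MRPL13, MRPL39, MRPL54 and MRPS22 stood just above the threshold, with differences of 1.27, 1.30, 1.29 and 1.26 and a limma adjusted p = 0.05003 each. MRPL47 had the largest difference at 1.98 (SE 0.36, limma adjusted p = 0.0695), followed by MRPS23 at 1.55 (limma adjusted p = 0.119) and MRPL1 at 1.44 (limma adjusted p = 0.0562). MRPL53 (-0.21), MRPS26 (-0.18) and MRPL4 (-0.13) stood lowest. With limma-voom on recovered reads 19 members were called above 0 and none below, where 2.03% of all genes were called above and 0.267% below. Without WT spindle replicate 1, 37 members were called above 0 and 4 below, where 13% of all genes were called above and 9.41% below. Without WT spindle replicate 2, 58 were called above 0 and none below, where 17.6% of all genes were called above and 5.24% below. WT spindle then has 1 library, assumed to vary like those of the other groups. Its replicates differed more than theirs (SD of the log2 replicate difference 0.695, against 0.304 to 0.381). The counts without a WT spindle library therefore rest on a spread that is too small.

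Other genes of mitochondrial gene expression were taken from lists chosen with earlier results of these data known. Of 7 mitoribosome proteins with other symbols, 4 fell in STAU1-KO (median -1.17) and 6 in WT (median -1.60), among them ICT1, a peptidyl-tRNA hydrolase built into the large subunit (-1.60 in STAU1-KO, -2.48 in WT), and CHCHD1 (-1.32 and -2.48). Of 16 translation factors, 9 fell and 2 rose in STAU1-KO (median -0.69) and 12 fell in WT (median -1.31). SLIRP, an RNA-binding protein that stabilises mitochondrial messages, fell, at -1.65 in STAU1-KO and -2.77 in WT, and MTFMT, which formylates the initiator tRNA, was at -1.13 and -1.49. LRPPRC, the partner of SLIRP, rose by 0.53 in STAU1-KO (limma adjusted p = 0.0427) and stood at -0.13 in WT (limma adjusted p = 0.542).

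Of 24 assembly and rRNA-modifying factors, 9 fell and 2 rose in STAU1-KO (median -0.27), and 14 fell and 2 rose in WT (median -0.55). FTSJ2, an rRNA methyltransferase, fell, at -1.23 in STAU1-KO and -1.41 in WT, MALSU1, which binds the large subunit during assembly, was at -0.97 and -1.58, and MPV17L2 at -1.53 and -1.5. Of 20 aminoacyl-tRNA synthetases and amidotransferase subunits, 7 fell and 3 rose in STAU1-KO (median -0.15), and 13 fell and 3 rose in WT (median -0.53). GATC, an amidotransferase subunit, fell by 1.60 in both genotypes, and QRSL1, another, was at -0.78 in STAU1-KO and -1.08 in WT, also called lower. Of 12 genes of mitochondrial DNA transcription and maintenance, 3 fell and 1 rose in STAU1-KO (median -0.18), and 5 fell and 1 rose in WT (median -0.32). SSBP1, which coats single-stranded mitochondrial DNA, fell, at -0.67 in STAU1-KO and -1.95 in WT, TFB2M, a transcription factor, was at -0.58 and -2.0, also called lower, while POLG2, a polymerase subunit, rose by 0.88 and 0.76.

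Messages of other large complexes fell as well. Cytosolic ribosomal protein mRNAs fell in 71 of 80 cases in STAU1-KO (median -1.81) and 78 of 80 in WT (median -2.61), with RPS29 at -3.09 and -3.89, RPL35A at -2.75 and -3.60, RPS15A at -2.36 and -2.81, and RPS13 at -2.07 and -3.59. Nuclear complex I (NDUF) mRNAs, which encode respiratory chain subunits, fell in 32 of 37 cases in STAU1-KO (median -1.16) and 35 of 37 in WT (median -1.90), with NDUFA4 at -1.71 and -3.27 and NDUFB2 at -1.54 and -2.21. In STAU1-KO against WT spindles, 22 of 37 NDUF mRNAs rose and 1 fell (median 0.57), and 16 of 80 cytosolic ribosomal protein mRNAs rose (median 0.49). Of the 13 messages the mitochondrial genome encodes, 12 fell in STAU1-KO (median -2.0) and 7 in WT (median -1.57), and none was called between STAU1-KO and WT spindles by limma (2 at an unadjusted p under 0.05, median -0.68). No test was made between these groups and the members.

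**Figure D5:**
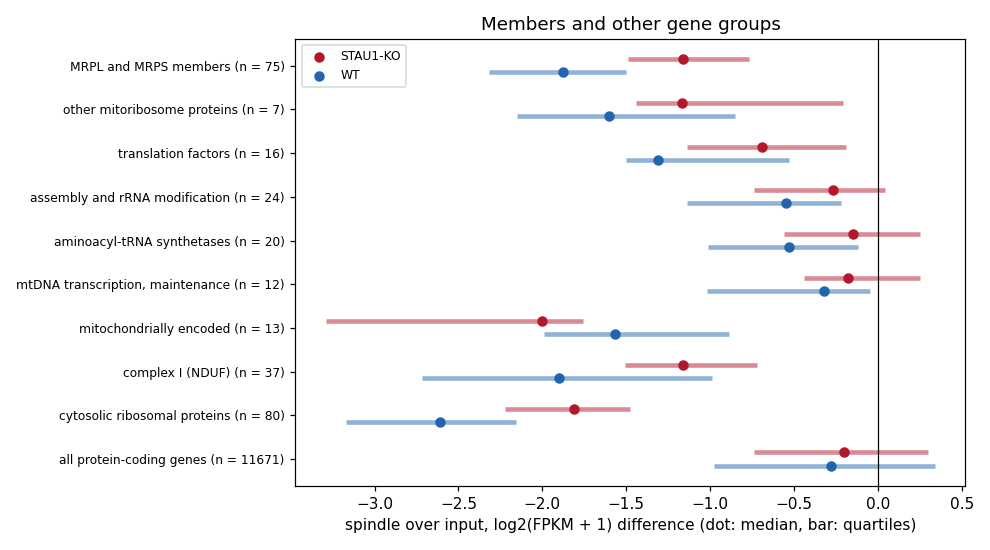
Spindle-over-input difference on the log2(FPKM + 1) scale for the members and other gene groups; dots are medians over tested genes, bars run from the lower to the upper quartile, red is STAU1-KO and blue is WT. The members' medians, -1.16 in STAU1-KO and -1.88 in WT, equal or nearly equal those of NDUF genes and lie between the cytosolic ribosomal proteins and all coding genes.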

How the data were processed

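Per the submitters' processing notes, the tools were TopHat, featureCounts, DESeq2 and FastQC and the build was GRCh37; versions, roles and the strand setting of the counting are not given in the sources used here. The deposited table gives FPKM per library, scaled by the authors, beside gene GC content in percent, lengths and TPM per group, which the authors computed and which enters no result here. The authors' deposited comparison tables give a base mean (a normalised signal), log2 fold changes, a Wald score, p-values and adjusted p-values. Since the deposited values per library are FPKM, limma 3.58.1 (R 4.3.3) was fitted to log2(FPKM + 1) of 17217 genes with an FPKM of at least 1 in at least 2 libraries. One model of 4 group means over 8 libraries left 4 residual degrees of freedom (prior 2.25, trend). Tests were two-sided, adjusted by Benjamini-Hochberg over all genes tested and called at 0.05; adding 1 understates changes of low genes. The script was tested on simulated data. Reads were recovered from FPKM and base mean (100% within 0.01 of a whole number) for depth and for limma-voom. Named members were the 3 with the largest and the 3 with the smallest change in each comparison, called members (the 6 of smallest p where more), the 5 highest and 3 lowest levels, and members of known role; a few others named beside them were chosen after their values were seen. Members, lists and rule were chosen with earlier results of these data known. Overlaps and coding sequences are from GENCODE 29 (GRCh38), matched by gene ID and used without GRCh37 coordinates. Alternatives were other pseudocounts, filters, scalings, groups in the fit, a replicate block, library weights, limma-voom and leaving out each library.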

Additional observations from a re-analysis of the deposited data

How the results depend on the processing

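Counts of members lower in spindles ranged from 43 to 71 in STAU1-KO (43 with equal coding sums) and from 60 to 72 in WT over the alternatives, within 1.5 times of 64 and 70. Counts of calls between genotypes did depend on the setting. Between STAU1-KO and WT spindles, 24 were called; the 2 groups alone gave 0, library weights 6, limma-voom 33, and leaving out each library 0 to 52. Between inputs, library weights gave 2 and leaving out each library 0 to 4, against 0. For the difference of changes, a pseudocount of 0.1 gave 11, equal coding sums 7, limma-voom 19 and leaving out each library 0 to 58, against 0. Limma-voom was chosen after seeing the data, and the 2 planned edgeR alternatives were not run. The number of all genes called moved with the setting too. For the difference of changes, 294 of all genes were called with equal coding sums, against 16 without that scaling. For some settings the share of all genes called is given above. For the others, the replicate block included, it is not given here, so these counts are not read as particular to the members. Directions turned for values near 0: scaling to equal upper quartiles put MRPL38 in WT at 0.15 and MRPS25 in STAU1-KO at 0.20, and scaling to equal coding sums put them at 0.61 and 0.59. Both scalings called MRPS25 higher in WT (0.40 and 0.94) and MRPS31 higher in STAU1-KO (0.39 and 0.78). Leaving out each library, MRPS25 in WT ranged from -0.11 to 0.12, MRPS30 and MRPL33 between inputs from -0.00 to 0.09 and from -0.01 to 0.11, MRPS26 and MRPL4 between spindles from -1.16 to 0.20 and from -0.89 to 0.05, and in the difference of changes from -0.87 to 0.50 and from -0.60 to 0.33. The cause was not tested.

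With the replicate number of the labels as a block, 63 members fell in STAU1-KO and 71 in WT, 21 were called between spindles, 0 between inputs and 0 in the difference; MRPL23 and MRPS23 were no longer called between spindles. Deviations of same-numbered replicates correlated between -0.053 and 0.019 across groups, so that the libraries share only a number and no pairing is used. The median member had 92.5 and 86.5 reads in the WT spindle libraries, which limits the precision for weakly expressed members.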

Other observations

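Genes of MRPL and MRPS symbols with a pseudogene biotype numbered 7 in the table, all at low levels. MRPS36P2 had 5 and 6 reads in STAU1-KO spindles against 2 and 3 in STAU1-KO input, and 7 and 5 in WT spindles against 1 and 1 in WT input. It was called higher in both genotypes (0.89 in STAU1-KO, limma adjusted p = 0.0106, and 1.75 in WT, limma adjusted p = 0.000561), the opposite direction to MRPS36. MRPS36P1 had 0 and 0 reads in STAU1-KO spindles against 13 and 6 in STAU1-KO input, and 1 and 1 in WT spindles against 4 and 4 in WT input. It was called lower in STAU1-KO (limma adjusted p = 0.00556) and stood at -0.59 in WT (limma adjusted p = 0.132), the same direction as MRPS36. Reads of near-identical copies cannot be told apart here, and so few reads make the values uncertain.

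The RNA of the mitochondrial ribosome is listed as MT-RNR1, of the small subunit, and MT-RNR2, of the large subunit. MT-RNR1 had 6.22 and 7.20 FPKM in STAU1-KO spindles against 125 and 98.7 FPKM in STAU1-KO input, and 9.68 and 169 FPKM in WT spindles against 127 and 152 FPKM in WT input. MT-RNR2 had 13.5 and 14.9 FPKM in STAU1-KO spindles against 121 and 94.8 FPKM in STAU1-KO input, and 18.7 and 202 FPKM in WT spindles against 74.0 and 92.3 FPKM in WT input. WT spindle replicate 2 was near or above its inputs for both, and the other 3 spindle libraries were far below theirs. The libraries had been depleted of ribosomal RNA, so these levels also hold what depletion left. Both genes were chosen after the data were seen.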
